A study of Mus musculus with 4 samples.

Results

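The Toll-like receptor (TLR) family of the mouse was measured on 4 whole mouse genome arrays, with 10 members (Tlr1, Tlr2, Tlr3, Tlr4, Tlr5, Tlr6, Tlr7, Tlr8, Tlr9 and Tlr13) among the 23186 genes that the arrays name by a symbol. Members were found by the gene name of the array annotation, which gave 13 of the 55681 non-control probes, 3 for Tlr7, 2 for Tlr8 and 1 for each of the others. All 4 cultures were bone marrow-derived macrophages (BMDMs) of C57BL/6J mice at 10 weeks of age, differentiated for 6 days with L929 culture supernatant, a source of M-CSF, and then stimulated for 2 days. Wild-type BMDMs were stimulated with 20 ng/ml IFN-γ plus 100 ng/ml LPS (M1) or with 50 ng/ml IL-4 (M2). BMDMs labelled p18 (2400001E08Rik) -/- received 50 ng/ml IL-4 (Lamtor1-deficient M2), p18 and 2400001E08Rik being other names of Lamtor1. In the study's methods the deficient mice carry Lamtor1 flox/flox with LysM-Cre, a Cre driven from the lysozyme locus of myeloid cells, so the deletion is restricted to cells in which that Cre acts. Wild-type BMDMs given 50 ng/ml IL-4 together with 250 nM Torin1, an inhibitor of mTOR, formed the last condition (Torin1-treated M2). The labels call the BMDMs with Lamtor1 wild type, whereas the study's methods name Lamtor1 flox/flox littermates as controls. The study's supplement defines its wild-type BMDMs as grown from Lamtor1 flox/flox marrow, and the legend of the figure on the arrays uses the same term. By that definition the 3 cultures with Lamtor1 were Lamtor1 flox/flox, which the labels themselves do not state. Each condition was measured on 1 array, so no comparison has a replicate or a test, and the labels do not say how many mice gave each culture.

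TLRs are transmembrane proteins that bind conserved molecules of microbes through leucine-rich repeats and signal through a cytosolic TIR domain. Tlr1, Tlr2, Tlr4, Tlr5 and Tlr6 act at the cell surface on lipopeptides, lipopolysaccharide and flagellin, whereas Tlr3, Tlr7, Tlr8, Tlr9 and Tlr13 act in endosomes and lysosomes on nucleic acids. In macrophages they are among the receptors that start NF-κB and interferon responses, and Lamtor1 and mTORC1 sit on the same late endosomes and lysosomes in which the nucleic acid-sensing members are loaded and cleaved.

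The arrays measured the family through 60-base probes, and the probes of Tlr1 and Tlr2, whose proteins pair as a receptor for triacylated lipopeptides, are shown because the log2 ratios of these partners to M2 lay 5.46 apart after Torin1. The capitals mark the longest run that the pair of probes shares, which is 7 bases long. Each of these 2 probes reads without a stop codon in 1 of the 3 forward frames. On the mm9 build of the array annotation, the Tlr1 probe lies at chr5:65316115-65316174 and the Tlr2 probe at chr3:83640344-83640403.
Tlr1 probe A_51_P495581: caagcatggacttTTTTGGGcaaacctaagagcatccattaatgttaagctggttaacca
Tlr2 probe A_51_P452629: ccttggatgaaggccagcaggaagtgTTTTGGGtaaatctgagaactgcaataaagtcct

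Over all pairs of probes for different members, the longest shared run was 8 bases, between the probe of Tlr3 and the brightest probe of Tlr7. The probes of Tlr1 and Tlr6, which are close relatives and neighbours in the genome, shared no run longer than 5 bases.

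In M1 BMDMs, 6 members fell at least 2-fold relative to M2, namely Tlr1, Tlr2, Tlr4, Tlr7, Tlr8 and Tlr13, and 1 member, Tlr6, rose, with the scaling used here but not with a shift to the median. In Lamtor1-deficient BMDMs, Tlr1 and Tlr8 fell and no member rose. In Torin1-treated BMDMs, Tlr1, Tlr3, Tlr4 and Tlr8 fell and Tlr13 rose. Tlr1 and Tlr8 were thus past 2-fold below M2 in all 3 comparisons, but these comparisons share the single M2 array, so that 1 reading of M2 enters all of them.

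These counts have to be read against all genes. At least 2-fold lower signals were given by 19.3% of all genes in M1, 8.68% after Lamtor1 loss and 11.8% after Torin1. At least 2-fold higher signals were given by 30.5%, 8.86% and 14.3%, respectively. The median log2 ratio of the 10 members was −1.18 in M1 against 0.74 over all genes, −0.53 after Lamtor1 loss against 0.04, and −0.11 after Torin1 against −0.05. The median over all genes in M1 depended on the scaling, being −0.08 when each array was divided by its median instead of its 75th percentile. With that median shift, 6 members were lower and 0 higher in M1, beside 31.9% lower and 15.5% higher of all genes, so the share of higher calls among all calls went from 61.3% to 32.7%. After Lamtor1 loss the median shift left 2 members lower and 0 higher, beside 8.10% lower and 9.67% higher of all genes. After Torin1 it left 4 members lower and 1 higher, beside 15.7% lower and 9.98% higher of all genes, and the share of higher calls went from 54.7% to 38.8%.

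**Figure D1:**
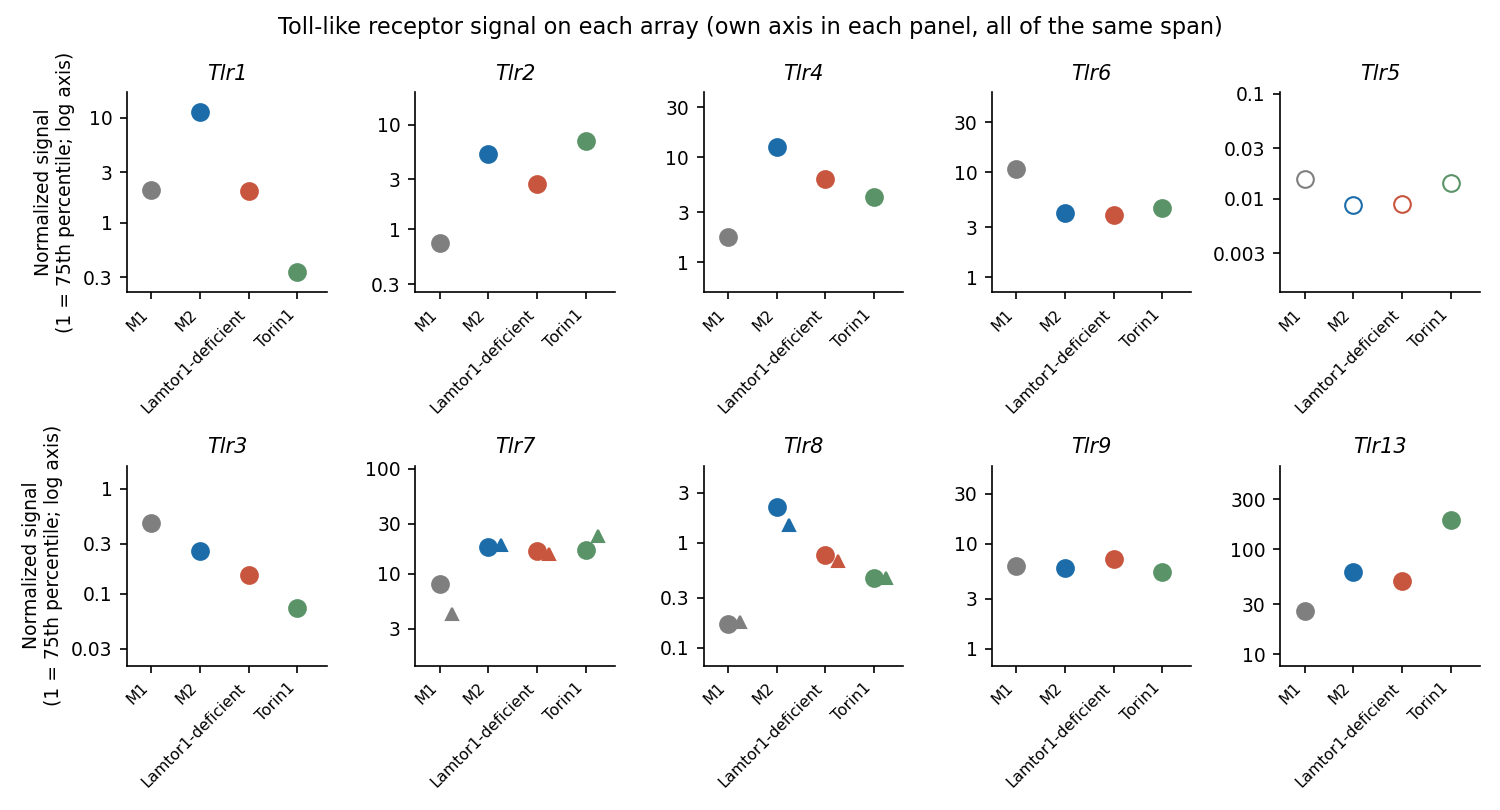
Normalized signal of the brightest probe of each receptor on the 4 arrays (circles; triangles, a second probe well above background), with 1 standing for the 75th percentile of the array, on log axes that span the same ratio in every panel; open circles are not well above background. Tlr1, Tlr4 and Tlr8 were brightest on the M2 array, whereas Tlr13 was brightest after Torin1 and Tlr6 in M1; heights may be compared within a panel only.

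Depth on an array is signal over background. The 75th percentile of the processed signal lay between 287 (M1) and 595 (M2), and between 50.9% and 55.4% of probes were well above background. The probes used for 9 of the 10 members were well above background on all 4 arrays, and that of Tlr5 on none. From probes spotted at least 8 times, the technical SD of a log2 ratio to M2 was 0.098 for M1, 0.090 for Lamtor1 loss and 0.093 for Torin1. It describes spots of 1 array and holds nothing on how cultures vary. Lamtor1, the gene targeted, had processed signals of 39460 in M2 and 833 in Lamtor1-deficient BMDMs, with 2.34% of the normalized signal of M2 left. Mrc1, the mannose receptor of IL-4-stimulated macrophages, gave a log2 ratio of −8.18 in M1, −1.42 after Lamtor1 loss and −2.64 after Torin1. Nos2, the inducible nitric oxide synthase of M1 cells, gave a log2 ratio of 10.56 in M1, 5.60 after Lamtor1 loss and 5.42 after Torin1. Cxcl10, a chemokine gene induced by interferon, rose in M1 (8.66), fell after Lamtor1 loss (−2.42) and was not well above background with Torin1, at least 10.9-fold below M2. Cxcl9 rose in M1 (10.72), gave 0.08 after Torin1 and was not well above background after Lamtor1 loss, at least 1.71-fold below M2. Of the other label checks, Il12b was not well above background on any array, and Chi3l3, an IL-4-induced gene, gave log2 ratios of −12.25 in M1 and 0.22 after both Lamtor1 loss and Torin1. All 7 macrophage markers measured were well above background on all 4 arrays, but Emr1 (F4/80) and Fcgr1, the high-affinity IgG receptor, fell after Lamtor1 loss (log2 −2.57 and −4.96) and after Torin1 (−2.81 and −4.61). In M1, Emr1 (−1.04) and Csf1r (−1.24), the M-CSF receptor, fell and Fcgr1 rose (2.49).

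Markers of neutrophils stood apart on the M2 array, which is the denominator of every ratio to M2. Of 9 such markers listed, 7 were measured, and their summed normalized signal was 91.7 in M2 against 5.88 in M1, 6.45 after Lamtor1 loss and 12.4 after Torin1. Most of the sum in M2 was S100a9 (65.3), and most of that after Torin1 was Mmp8 (6.52). Relative to M2, 6 of 7 markers were at least 2-fold lower in M1, 7 of 7 after Lamtor1 loss and 6 of 7 after Torin1, where Mmp8 was higher. The granule genes Ngp and Ltf were not well above background in M1. Neutrophils also express several TLRs, and the part of these cells in the ratios of Tlr1, Tlr2, Tlr4 and Tlr8 was not tested. Fibroblast markers had a summed normalized signal of 16.0 in M1, 43.2 in M2, 55.9 after Lamtor1 loss and 15.3 after Torin1. In M1, 1 of the 6 was at least 2-fold higher and 5 were lower, beside 30.5% and 19.3% of all genes. The higher one was Dcn (log2 2.55), whose normalized signal of 9.27 made up most of the M1 sum. Dcn also rose after Lamtor1 loss (1.91). The part of fibroblasts in the TLR ratios was not tested either. In these bulk samples, fewer cells of a type and less RNA per cell cannot be told apart.

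The surface receptors are taken first. Tlr1, the partner of Tlr2 for triacylated lipopeptides, had normalized signals of 11.2 in M2, 2.06 in M1, 1.98 in Lamtor1-deficient BMDMs and 0.338 with Torin1. M2 was the highest of the arrays and Torin1 the lowest, whereas M1 and Lamtor1-deficient BMDMs differed by a log2 of 0.06, which is less than 2 technical SDs. Tlr1 therefore fell 5.45-fold in M1 (log2 −2.45), 5.67-fold after Lamtor1 loss (−2.50) and 33.2-fold after Torin1 (−5.05). The last is the member ratio farthest from 0 in any of the 3 comparisons, and it lay between −5.30 and −4.64 under all alternatives. The signal left by Torin1 (159 before scaling) was still well above the lowest signal called above background on that array, 15.7.

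Tlr2, the shared partner of Tlr1 and Tlr6, was spotted 10 times on each array, of which 8 to 10 spots were used. Its normalized signal was 5.21 ± 0.14 in M2 (SD, n = 8 spots), 0.744 ± 0.033 in M1 (n = 10 spots), 2.72 ± 0.063 in Lamtor1-deficient (n = 10 spots) and 6.91 ± 0.14 in Torin1-treated BMDMs (n = 8 spots). The spots of the 4 arrays did not overlap, the closest being 5.34 as the highest in M2 and 6.62 as the lowest after Torin1. Tlr2 fell 7.01-fold in M1 (log2 −2.81). Its log2 ratio was −0.94 after Lamtor1 loss, short of the 2-fold threshold, and 0.41 after Torin1. Repeated spots measure 1 RNA sample and are not replicates of the culture.

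**Figure D2:**
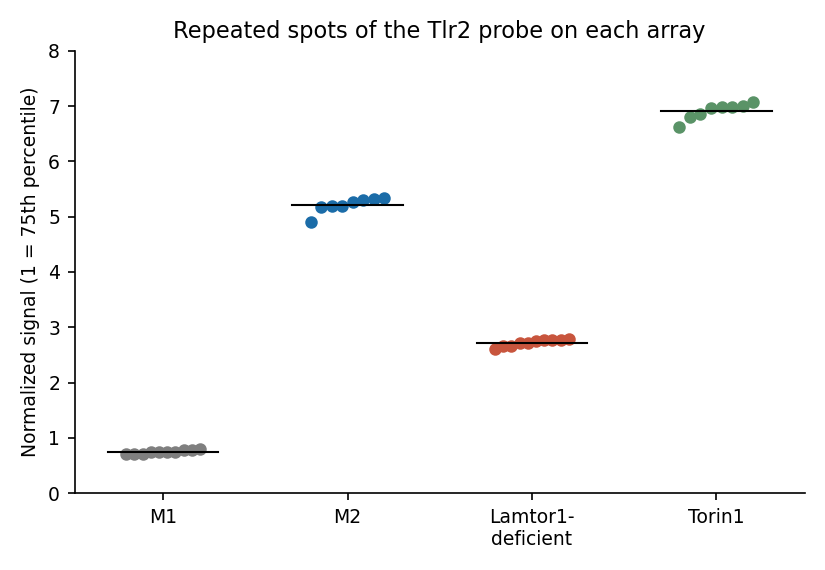
Normalized signal of each used spot of the Tlr2 probe on the 4 arrays (8 to 10 spots each; line, mean of the spots), on a linear axis with 1 standing for the 75th percentile. The spots fall into separate bands in the order M1, Lamtor1-deficient, M2 and Torin1, with no overlap between arrays.

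Tlr4, the receptor for LPS, had normalized signals of 12.5 in M2, 1.72 in M1, 6.26 in Lamtor1-deficient BMDMs and 4.18 with Torin1, each the mean of 2 spots. The order M2, Lamtor1-deficient, Torin1-treated, M1 had no neighbours closer than a log2 of 0.58. Tlr4 fell 7.26-fold in M1 (log2 −2.86) and 2.99-fold after Torin1 (−1.58). After Lamtor1 loss it lay just short of the 2-fold threshold (log2 −0.999), with values from −1.09 to −0.93 under the alternatives, so this member and Tlr2 (from −1.01 to −0.85) decide whether 2, 3 or 4 members count as lower. The nearest member past the threshold there was Tlr8, with a log2 of −1.54. M1 BMDMs had been given LPS, the ligand of Tlr4, for 2 days.

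Tlr6, which pairs with Tlr2 for diacylated lipopeptides, had normalized signals of 10.6 in M1, 4.13 in M2, 3.93 in Lamtor1-deficient BMDMs and 4.53 with Torin1. Its log2 ratio in M1 was 1.37, or 2.58-fold, and the call was lost with the median shift (0.54). It was 1.33 with quantile normalization, 1.34 with the percentile taken over bright probes (those above background on every array) and 1.21 with normexp. Neighbouring levels among the 3 arrays of IL-4-stimulated BMDMs were less than 2 technical SDs apart, and the sign after Torin1 (0.13) turned with the median shift (−0.12). Tlr1 and Tlr6 lie next to each other on chromosome 5 with 0 coding genes between them, yet their log2 ratios to M2 differed by as much as 5.19. Among the 36 pairs of the 9 members above background, wider gaps were found between Tlr1 and Tlr2 (5.46) and between Tlr1 and Tlr13 (6.70). Tlr5, the flagellin receptor, was not well above background on any array, with processed signals of 4.40 in M1, 5.13 in M2, 4.73 in Lamtor1-deficient BMDMs and 6.59 with Torin1, and no ratio is given for it.

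The receptors of endosomes follow. Tlr3, the sensor of double-stranded RNA, had normalized signals of 0.469 in M1, 0.255 in M2, 0.149 in Lamtor1-deficient BMDMs and 0.0728 with Torin1. Every step in this order was wider than 2 technical SDs of bright probes, but the signals themselves were dim, from 152 in M2 to 34.2 after Torin1. Tlr3 fell 3.50-fold after Torin1 (log2 −1.81), a value that was −0.83 with normexp background correction. Its log2 ratio was 0.88 in M1, where the median shift gave 0.06, and −0.77 after Lamtor1 loss.

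Tlr7, a receptor for single-stranded RNA, had normalized signals of 17.9 in M2, 16.5 in Lamtor1-deficient, 16.8 in Torin1-treated and 8.02 in M1 BMDMs by its brightest probe. By this probe the 3 IL-4 arrays did not differ by 2 technical SDs, and M1 was lower by 2.22-fold (log2 −1.15). A second probe of the same transcript gave 18.7 in M2, 15.5 in Lamtor1-deficient, 22.8 in Torin1-treated and 4.10 in M1 BMDMs, a log2 ratio of −2.19 in M1. Both probes put M1 below the other arrays, the second by a wider margin. The mean over all 3 Tlr7 probes, of which 1 is not well above background, gave a log2 ratio of −0.35 in M1, which leaves 5 members lower there instead of 6. After Torin1 their signs differed, −0.09 and 0.29, and both were under 2-fold. The third Tlr7 probe was not well above background on any array.

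Tlr8, the X-linked neighbour of Tlr7 with 0 coding genes between them, had normalized signals of 2.21 in M2, 0.761 in Lamtor1-deficient, 0.468 in Torin1-treated and 0.167 in M1 BMDMs. It fell 13.2-fold in M1 (log2 −3.72), 2.90-fold after Lamtor1 loss (−1.54) and 4.72-fold after Torin1 (−2.24). Its other probe gave 1.47, 0.674, 0.466 and 0.178 in the same order of arrays, with log2 ratios of −3.05, −1.13 and −1.66 for M1, Lamtor1 loss and Torin1. Both probes thus passed 2-fold in all 3 comparisons and put the arrays in the same order. The M1 signal of the brighter probe was 48.0 before scaling, against a lowest signal above background of 18.8 on that array, and normexp background correction brought its log2 ratio to −2.50. The largest difference between the log2 ratios of Tlr4 and Tlr8 over the 3 comparisons was 0.86, the smallest among the 36 pairs of members.

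Tlr9, the receptor for unmethylated CpG DNA, had normalized signals of 5.93 in M2, 6.22 in M1, 7.14 in Lamtor1-deficient BMDMs and 5.38 with Torin1. No array differed from M2 by 2-fold. The log2 ratios were 0.07 in M1, 0.27 after Lamtor1 loss and −0.14 after Torin1, and the one in M1 was −0.75 after the median shift.

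Tlr13, the receptor for a bacterial ribosomal RNA sequence, had normalized signals of 188 in Torin1-treated, 60.2 in M2, 49.4 in Lamtor1-deficient and 25.9 in M1 BMDMs. It rose 3.13-fold after Torin1 (log2 1.64) and was the only member past 2-fold above M2 in that comparison, with a range from 1.40 to 1.73 under the alternatives. It fell 2.32-fold in M1 (log2 −1.22) and gave a log2 ratio of −0.29 after Lamtor1 loss, a gap wider than 2 technical SDs. The processed signal after Torin1 was 88443, and no spot of any array was saturated.

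**Figure D3:**
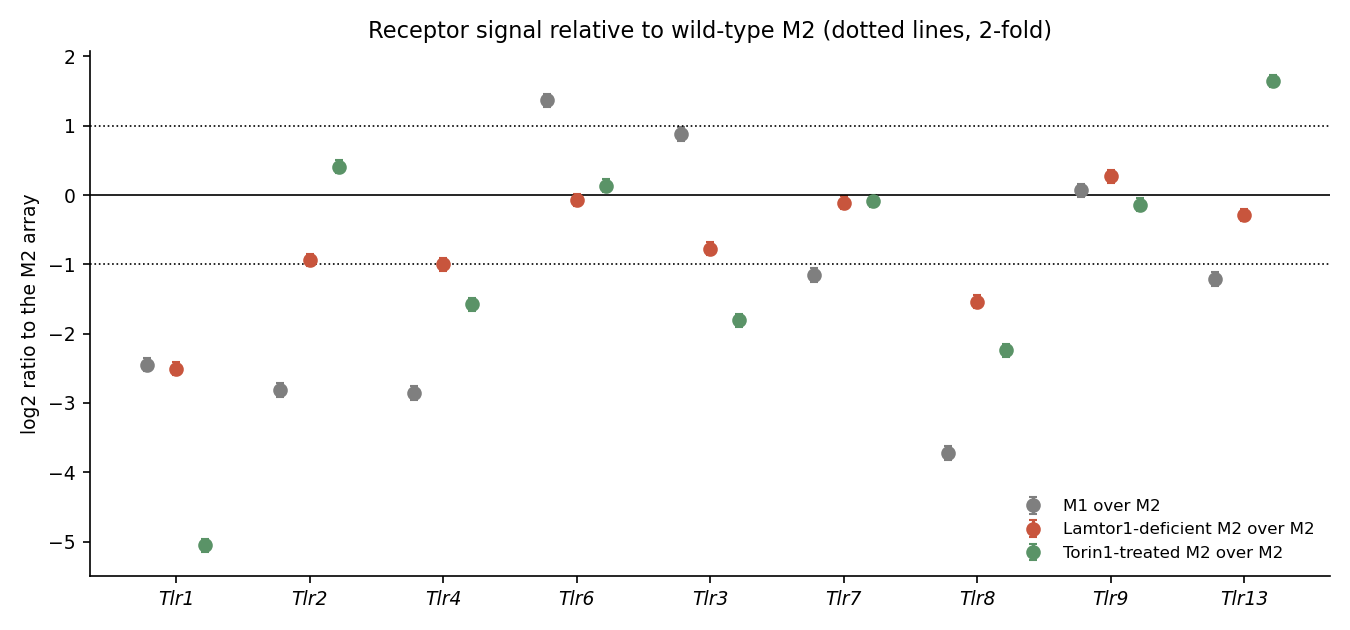
Log2 ratio of the normalized signal to the M2 array for the 9 receptors above background in M1 (grey), Lamtor1-deficient M2 (red) and Torin1-treated M2 (green) BMDMs; bars are 1 technical SD of a log2 ratio and do not include variation between cultures, and dotted lines mark 2-fold. Tlr1 after Torin1 is the lowest point (−5.05) and Tlr13 after Torin1 the highest (1.64).

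Lamtor1 loss and Torin1 treatment were also set against each other directly. Lamtor1-deficient BMDMs were at least 2-fold above Torin1-treated BMDMs in 2 members, Tlr1 (log2 2.55) and Tlr3 (1.04), beside 11.6% of all genes. They were at least 2-fold below in 2 others, Tlr13 (−1.93) and Tlr2 (−1.35), beside 12.7% of all genes. Tlr4 and Tlr8 had log2 ratios of 0.58 and 0.70 and were within 2-fold. Tlr3 was short of 2-fold with the 75th percentile over bright probes (0.88) and with normexp (0.42), which left 1 member higher. With the median shift 3 members were higher and 2 lower, against 18.1% and 8.61% of all genes, and the median over all genes moved from 0.12 to 0.43.

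**Figure D4:**
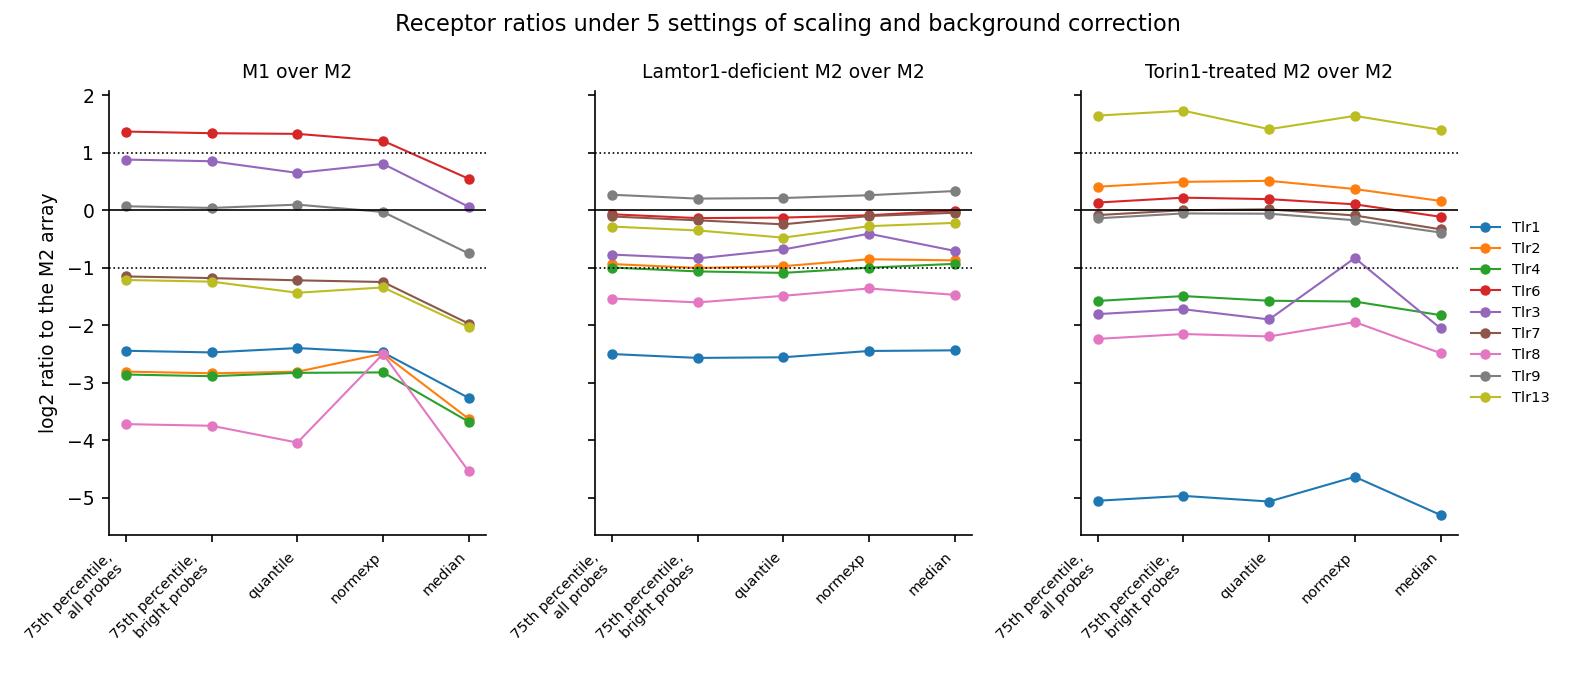
Log2 ratio to the M2 array of the 9 receptors above background under 5 settings (75th percentile over all probes or over bright probes, quantile normalization, normexp background correction, and a shift to the median), 1 panel for each comparison, with dotted lines at 2-fold. Tlr1, Tlr4 and Tlr8 keep their sign under every setting, whereas Tlr9 in M1 and Tlr6 and Tlr7 after Torin1 cross 0.

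Promoter windows were examined because neighbours such as Tlr1 and Tlr6 moved apart and because Tlr1 and Tlr8 were low in the same 3 comparisons. RefSeq start sites on GRCm38.p6 gave windows for 8 of the 10 members (Tlr4 and Tlr7 had none), with 2 start sites for Tlr1 and for Tlr6. Each window holds 250 bases before and 50 bases after the start. The motifs searched on both strands were GAGGAA (the core bound by PU.1, a macrophage transcription factor), GAAA and GAAA 2 bases apart (interferon-stimulated response element), GGGA and CC 4 bases apart (NF-κB), TTC and GAA 4 bases apart (STAT6), CACGTG (E-box) and AGGTCA and AGGTCA 4 bases apart (LXR response element), and matches stand in capitals.
Tlr1, first start (chr5:64932650-64932949, minus strand): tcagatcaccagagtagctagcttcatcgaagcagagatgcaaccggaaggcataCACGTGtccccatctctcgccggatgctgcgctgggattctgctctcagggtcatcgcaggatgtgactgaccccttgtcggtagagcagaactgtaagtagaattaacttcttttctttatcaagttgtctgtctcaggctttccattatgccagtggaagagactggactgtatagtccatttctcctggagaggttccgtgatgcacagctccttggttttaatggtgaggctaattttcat
Tlr1, second start (chr5:64933509-64933808, minus strand): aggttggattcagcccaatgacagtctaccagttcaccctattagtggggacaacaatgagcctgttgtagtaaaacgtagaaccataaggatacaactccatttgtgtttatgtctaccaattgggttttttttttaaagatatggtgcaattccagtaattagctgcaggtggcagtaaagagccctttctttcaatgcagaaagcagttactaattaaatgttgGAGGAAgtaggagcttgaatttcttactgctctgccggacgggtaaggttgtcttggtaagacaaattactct
Tlr6, first start (chr5:64959117-64959416, minus strand): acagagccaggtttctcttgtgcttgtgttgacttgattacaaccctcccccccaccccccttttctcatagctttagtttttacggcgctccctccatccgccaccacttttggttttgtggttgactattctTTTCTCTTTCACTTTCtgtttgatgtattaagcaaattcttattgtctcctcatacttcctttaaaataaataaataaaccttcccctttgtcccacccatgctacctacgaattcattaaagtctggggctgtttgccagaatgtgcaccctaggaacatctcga
Tlr6, second start (chr5:64959999-64960298, minus strand): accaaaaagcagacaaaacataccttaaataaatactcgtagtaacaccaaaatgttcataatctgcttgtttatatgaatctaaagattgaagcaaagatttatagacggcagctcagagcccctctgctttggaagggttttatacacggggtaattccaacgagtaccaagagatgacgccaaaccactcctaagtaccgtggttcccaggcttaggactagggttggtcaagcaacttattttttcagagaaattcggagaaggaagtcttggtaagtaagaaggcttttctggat
Tlr8 (chrX:167264280-167264579, minus strand): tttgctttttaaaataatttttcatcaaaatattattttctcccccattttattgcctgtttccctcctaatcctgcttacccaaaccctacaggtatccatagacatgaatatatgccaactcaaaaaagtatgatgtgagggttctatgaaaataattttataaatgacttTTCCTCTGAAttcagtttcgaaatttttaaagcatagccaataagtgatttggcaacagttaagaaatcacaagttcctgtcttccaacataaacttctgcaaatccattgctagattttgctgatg
Tlr13 (chrX:106143025-106143324, plus strand): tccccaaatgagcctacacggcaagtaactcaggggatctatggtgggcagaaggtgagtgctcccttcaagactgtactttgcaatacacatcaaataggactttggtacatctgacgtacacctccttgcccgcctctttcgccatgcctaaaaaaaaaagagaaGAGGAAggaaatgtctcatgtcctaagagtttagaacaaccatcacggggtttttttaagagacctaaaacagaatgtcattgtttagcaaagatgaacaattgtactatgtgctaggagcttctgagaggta

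The first Tlr6 window held the only interferon-stimulated response element matches in the 10 windows of these 8 members, 2 overlapping ones on the minus strand whose leftmost bases lie 116 and 110 bases before the start, a motif in 3.44% of 32851 windows of the same length. The second Tlr6 window held none of the motifs searched. GAGGAA lay in the windows of 4 member genes, the second Tlr1 start, Tlr8, Tlr9 and Tlr13, beside 28.3% of all windows. The Tlr8 match overlapped the only STAT6 match in those 10 windows (6.95% of all windows). CACGTG, the sequence that TFEB and MYC bind, lay in 1 member window, that of the first Tlr1 start (7.15% of all windows). The NF-κB motif lay in windows of Tlr2, Tlr3 and Tlr5 (20.7% of all windows), and its matches in Tlr2 read on both strands. The LXR response element was in none of the member windows and in 0.0152% of all windows. The exact repeat searched is so rare that its absence from 10 windows carries no information on LXR sites. A match of letters is a description and does not show that a factor binds there.

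For the 4 members with the widest ratios, the genes with the most similar pattern were searched among the 12824 genes that passed background on each of the 4 arrays, as those whose largest difference in log2 ratio over the 3 comparisons was smallest. The nearest to Tlr1 were Tmem176a, Ptpn22 and Gas7, with largest differences of 0.53, 0.65 and 0.68. The nearest to Tlr8 were Rad51ap1, Dpysl2 and Tbxas1 (0.14, 0.38 and 0.40), and those to Tlr4 were Arhgef6, Ier5l and Adcy9 (0.15, 0.20 and 0.21). The nearest to Tlr2 were Pcbp3, Arhgap31 and Lrrc32 (0.30, 0.35 and 0.36). With 4 arrays this likeness rests on 3 ratios that share M2.

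The other genes of the pathway were read from lists of their roles, beginning with the co-receptors and proteins that transfer ligands to TLRs. Of all genes, 30.5% were at least 2-fold higher and 19.3% lower in M1 (15.5% and 31.9% with the median shift), 8.86% and 8.68% after Lamtor1 loss, and 14.3% and 11.8% after Torin1. Of 7 measured, 2 rose and 2 fell in M1, 2 rose and 2 fell after Lamtor1 loss, and 1 fell after Torin1. With the median shift 1 was higher and 3 were lower in M1. Cd14, the co-receptor that hands LPS to Tlr4, had log2 ratios of 0.27 in M1 and 0.00 after Torin1 and fell after Lamtor1 loss (−1.86). Ly96 (MD-2), which binds LPS in the Tlr4 complex, had log2 ratios of 0.48, 0.56 and 0.21 for M1, Lamtor1 loss and Torin1, so none passed 2-fold. Ly86 (MD-1), the partner of Cd180, fell after Lamtor1 loss (−1.50) and after Torin1 (−3.26). Cd36, a scavenger receptor that assists Tlr2 and Tlr6, fell in M1 (−4.44). Clec7a (Dectin-1), a β-glucan receptor that signals together with Tlr2, fell in M1 (−4.13) and rose after Lamtor1 loss (1.03). Lbp, the LPS-binding protein, was not well above background in M2 or after Torin1, and was at least 3.32-fold higher than M2 in M1 and at least 4.11-fold higher after Lamtor1 loss.

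Of the proteins that fold TLRs and carry them out of the endoplasmic reticulum, 5 were measured. In M1, 3 fell and 0 rose, with a median log2 ratio of −1.49, and the median shift gave 4. They were Lrrc59 (−2.32), Hsp90b1 (−2.15), the chaperone of most TLRs, and Unc93b1 (−1.49), the escort of the nucleic acid-sensing TLRs to endosomes. None passed 2-fold after Lamtor1 loss, and Unc93b1 gave a log2 ratio of −0.68 there. After Torin1, Lrrc59 fell (−1.29), and Unc93b1 and Hsp90b1 had log2 ratios of −0.92 and −0.67. With the median shift, 2 were lower after Torin1.

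Among 12 genes of endosomal receptor cleavage, nucleic acid digestion and nucleoside export, 2 rose in M1, 1 rose and 1 fell after Lamtor1 loss, and 2 rose and 1 fell after Torin1. Pld4, an exonuclease of endosomes that degrades single-stranded nucleic acid ligands, had normalized signals of 43.2 in M2, 29.0 in M1, 16.7 in Lamtor1-deficient BMDMs and 1.80 with Torin1, and fell after Lamtor1 loss (log2 −1.37) and after Torin1 (−4.59). Its relative Pld3 rose after both (1.66 and 1.20, the latter 0.96 with the median shift). Rnaset2a, an endosomal ribonuclease, gave a log2 ratio of 1.61 in M1, which was 0.79 with the median shift, under which 0 of the 12 were higher and 2 lower in M1. The other riser after Torin1 was Ctsk, a cathepsin (1.59).

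Of the 6 TIR-domain and related adaptors, 1 rose in M1, 1 was lower after Lamtor1 loss and 1 rose after Torin1. Pik3ap1 (BCAP), which links TLRs to PI 3-kinase, rose in M1 (2.60). Myd88, the adaptor of all members measured except Tlr3, had log2 ratios of 0.82 in M1, −0.93 after Lamtor1 loss and −0.52 after Torin1, none past 2-fold. Ticam2 (TRAM), the bridging adaptor of Tlr4, gave a log2 ratio of 1.01 after Torin1, which was 0.76 with the median shift. The adaptor counted as lower after Lamtor1 loss was Sarm1, which was not well above background on any array.

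Of 17 kinases and ubiquitin ligases downstream of the receptors, 6 rose and 3 fell in M1, beside 30.5% and 19.3% of all genes, and the median shift gave 2 and 6, beside 15.5% and 31.9%. After Lamtor1 loss 1 rose and 0 fell, beside 8.86% and 8.68% of all genes. After Torin1 2 rose and 1 fell, beside 14.3% and 11.8%, and the median shift gave 1 and 2, beside 9.98% and 15.7%. Map3k8 (Tpl2), which starts the ERK branch, rose in M1 (3.44) and gave a log2 ratio of 1.13 after Torin1 (0.88 with the median shift). Irak2 rose in M1 (2.41) and after Lamtor1 loss (1.12). Irak4, the first kinase bound by Myd88, fell in M1 (−2.87) and after Torin1 (−1.24). Traf6, the ubiquitin ligase below the Irak kinases, rose after Torin1 (1.72).

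Among 5 interferon regulatory factors, 2 rose and 0 fell in M1, beside 30.5% and 19.3% of all genes, the 2 being Irf7 (6.01) and Irf1 (3.74). The median shift gave 2 higher and 2 lower in M1, Irf3 (−1.57) and Irf5 (−1.03) being the lower ones, beside 15.5% and 31.9%. Irf7, which Tlr7 and Tlr9 use for interferon α, had normalized signals of 124 in M1, 1.93 in M2, 0.360 in Lamtor1-deficient BMDMs and 3.37 with Torin1. It fell after Lamtor1 loss (−2.43) and gave a log2 ratio of 0.80 after Torin1. Irf5 gave a log2 ratio of −1.01 after Lamtor1 loss, at the threshold, and the median shift left 1 factor lower there instead of 2. Irf1 rose after Torin1 (1.48).

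Of 15 inhibitors of TLR signalling, 10 rose and 1 fell in M1, beside 30.5% and 19.3% of all genes, with a median log2 ratio of 1.96 against 0.74 over all genes. The median shift gave 9 and 4, beside 15.5% and 31.9%. After Lamtor1 loss 2 rose and 1 fell, beside 8.86% and 8.68% of all genes. After Torin1 2 rose and 4 fell, beside 14.3% and 11.8%, and the median shift gave 1 and 4, beside 9.98% and 15.7%. Dusp1, a phosphatase of p38 and JNK, rose in M1 (4.84) and fell after Lamtor1 loss (−1.88). Tnfaip3 (A20), an editor of ubiquitin chains on Traf6, rose in M1 (3.56) and after Torin1 (2.06) and gave a log2 ratio of 0.90 after Lamtor1 loss. Lgals9 rose in M1 (3.20) and was within 2-fold elsewhere. Sigirr, an orphan TIR receptor that dampens Tlr4 signals, rose after Lamtor1 loss (2.16) and fell after Torin1 (−1.35). Socs1 and Tnip3 fell after Torin1 (−2.15 and −2.36), and Il1rl1, the IL-33 receptor, was at least 15.2-fold below M2 there, where it was not well above background.

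**Figure D5:**
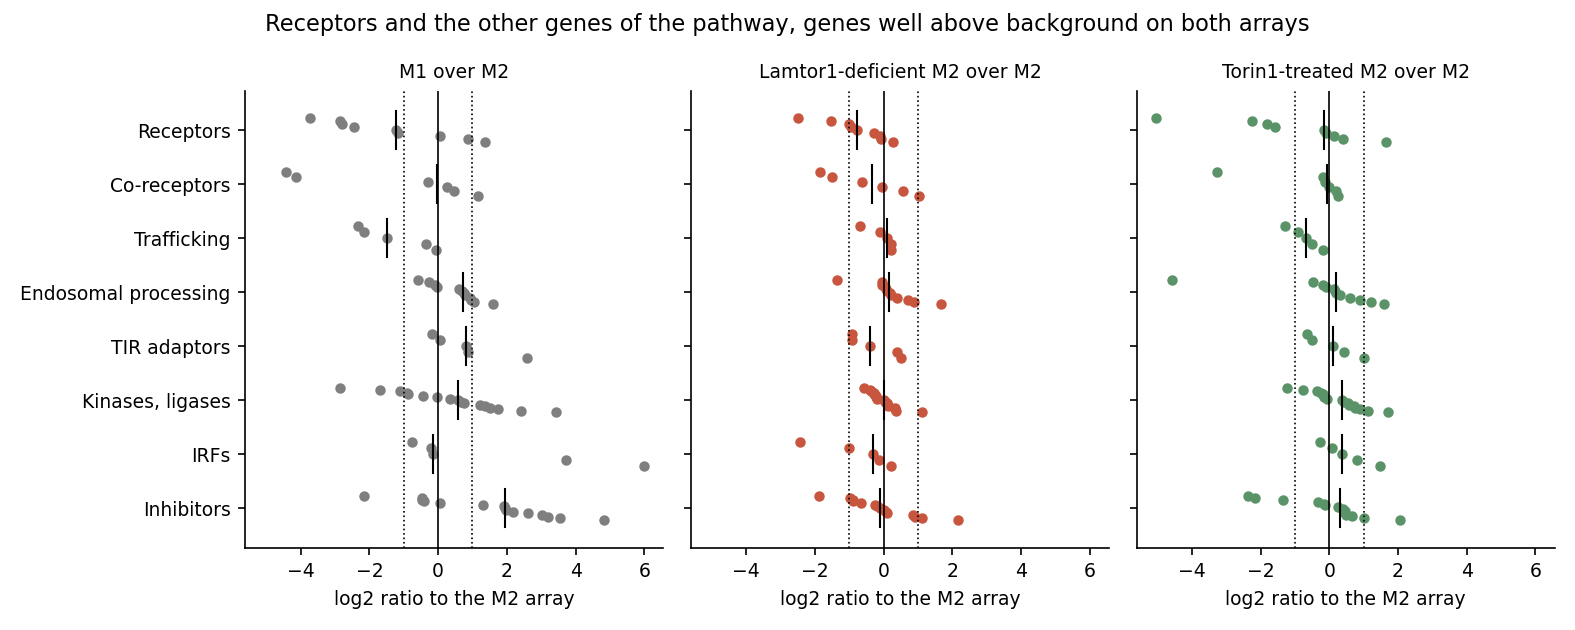
Log2 ratio to the M2 array for the receptors and 7 lists of pathway genes in M1, Lamtor1-deficient M2 and Torin1-treated M2 BMDMs; each point is a gene well above background on both arrays, black bars are the medians of the points shown, and dotted lines mark 2-fold. In M1 most inhibitors lie to the right and most receptors to the left of 0, and after Lamtor1 loss most points lie within 2-fold.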

How the data were processed

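The authors deposited intensity values of 1 scanner file per array and a table of the whole series, in both of which the processed signal of Feature Extraction is corrected for background and for trends within an array and is not normalized between arrays. This software is given as version 10.7.3.1 in the files and as version 10.5.1.1 in the submitters' processing notes. The table of the series and the scanner files disagreed by no more than 0.497%. Mean signals and background medians served for an alternative background correction.

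Following the study's methods, signals under 1 would have been set to 1 (the lowest was 3.12), each array was divided by its 75th percentile over non-control probes, and values were set on the log2 scale with no filter on dim probes. The 3671 control spots and the spots marked as non-uniform or population outliers (170 to 226 per array) were left out, and spots of 1 probe were averaged. Each gene was represented by its brightest probe, the one with the highest mean log2 signal over the 4 arrays. A gene was called where its normalized signal differed at least 2-fold from M2. With 1 array per condition no test was run and no p-value is given, and the single array per condition sets the precision. Where only 1 of a pair of arrays was well above background, the ratio is a bound against the lowest signal called above background on the other array.

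The members and lists were chosen with earlier results of these data known. The text names all members with all probes, the targeted gene, up to 3 genes per list with the largest ratios among those above background on both arrays, label checks and the 3 genes most like each of 4 members. Cd14, Ly96, Lbp, Ctsk, Traf6, Irf3, Sigirr, Sarm1, Socs1, Tnip3, Il1rl1, Mmp8 and the genes of the closing section that hold no place in this rule were named after their values were seen. Promoter windows and gene names came from RefSeq (GRCm38.p6), which matched 21742 of 23186 symbols (93.8%), and probe positions (mm9) came from the array annotation.

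Alternatives were a shift to the median, quantile normalization, the 75th percentile over probes above background on all arrays, normexp with an offset of 50, a filter and a floor on dim probes, outlier spots kept, the mean over the probes of a gene, the series table and a 3-fold threshold. An alternative chosen after seeing the data took the brightest probe over the 3 IL-4 arrays. The procedure was tested on simulated data. Some items are not reported here. Calculations used Python 3.11.15 with NumPy 2.4.6, pandas 2.3.3 and matplotlib 3.10.9, and R 4.3.3 with limma 3.58.1.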

Additional observations from a re-analysis of the deposited data

How the results depend on the processing

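No called ratio of a member changed sign under any of the 10 alternatives fixed at the start or the 1 chosen after seeing the data. With each array shifted to its median, the number of members at least 2-fold higher in M1 was 0 instead of 1, and the median log2 ratio of the members was −2.01 instead of −1.18 in M1 and −0.36 instead of −0.11 after Torin1. Quantile normalization gave a median of −1.33 in M1. Normexp gave −1.30 in M1 and −0.34 instead of −0.53 after Lamtor1 loss. The mean over all probes of a gene gave −0.78 in M1, where the number of lower members was 5 instead of 6 (Tlr7 being within 2-fold), and −0.0053 after Torin1. With the brightest probe chosen over the 3 IL-4 arrays, the medians were −1.70 and −0.0053. Only probes above background on both arrays gave −0.77 after Lamtor1 loss, since Tlr5 then drops out. Members at least 2-fold lower after Lamtor1 loss numbered 4 instead of 2 with the 75th percentile over probes above background on all 4 arrays and 1 at a 3-fold threshold, which also left 0 higher in M1. Of 99 values of single members under the alternatives in each comparison, 77 moved by less than the technical spread in M1, 90 after Lamtor1 loss and 76 after Torin1. No paired analysis was possible because each condition has 1 array and no array can be left out. The variation between cultures was not measured, probes not above background are less precise (technical SD of 0.37 to 0.51 for the log2 ratio to M2), and Tlr5 cannot be compared at this signal.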

Other observations

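The other mouse TLR genes on the arrays and the cytosolic sensors, which detect nucleic acids and peptidoglycan without a TLR, were read in the same way. Tlr11, which binds profilin of protozoa, was not well above background on any array. Tlr12, its partner, had processed signals of 16.4 in M1, 112 in M2, 38.1 in Lamtor1-deficient BMDMs and 94.1 with Torin1. It was not well above background in M1 and was at least 2.87-fold lower there than in M2. Lamtor1 loss gave a log2 ratio of −1.40 and Torin1 one of 0.09, with dim signals throughout.

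Of 9 cytosolic sensors measured, 7 rose and 1 fell in M1, beside 30.5% and 19.3% of all genes, and the median shift gave the same numbers, beside 15.5% and 31.9%. Nod1, a peptidoglycan sensor, and Zbp1, a sensor of Z-form nucleic acids, rose in M1 (log2 3.87 and 3.79), and Nod1 fell after Torin1 (−1.19). Tmem173 (STING), the adaptor of the cyclic dinucleotide pathway, had processed signals of 1679 in M1, 16374 in M2, 8007 in Lamtor1-deficient BMDMs and 1987 with Torin1. It fell in M1 (−2.23) and after Torin1 (−2.70) and gave a log2 ratio of −0.88 after Lamtor1 loss. Dhx58 (LGP2) and Nod2 fell after Lamtor1 loss (−1.24 and −1.02, the latter at the threshold), which leaves 2 of 9 lower there.

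Of the markers of other cell types, those of plasmacytoid dendritic cells, which use Tlr7 and Tlr9, had a summed normalized signal of 323 in M1, 138 in M2, 128 in Lamtor1-deficient BMDMs and 213 with Torin1, nearly all of it Siglech and Pacsin1. Of the others, Cox6a2 fell after Torin1 (log2 −4.07) and Klk1 rose after Lamtor1 loss (2.66). Those of B cells summed to 0.607, 1.16, 0.513 and 0.274 on the same arrays, with Ms4a1 not above background on any of them. The sums of conventional dendritic cell markers were 1.07, 0.170, 0.124 and 0.285, with Xcr1 and Itgae not above background on any array, and those of T cell markers were 4.04, 2.54, 3.30 and 2.46, most of it Cd3e. Of the 5 T cell markers, 3 were higher and 0 lower after Lamtor1 loss, beside 8.86% and 8.68% of all genes. With Torin1, 1 was higher and 1 lower, beside 14.3% and 11.8%. Lck, above background on all 4 arrays, rose after Lamtor1 loss (log2 1.96) and after Torin1 (1.63). Cd3d and Cd3g, above background on the Lamtor1-deficient array alone, were at least 4.35-fold and at least 1.79-fold above M2 there. Cd2 passed background in M2 and Lamtor1-deficient BMDMs only. Its signal lay at least 5.42-fold below M2 with Torin1 and at least 2.77-fold below M2 in M1. The part of these cells in the TLR ratios was not tested.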
